A study of Mus musculus with 24 samples.

Results

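The levels of 8 genes of photoreceptor death outside the classical caspase route were measured in whole retinas of the rd10 mouse. They were chosen by symbol from the table of nuclear gene counts, in which 8 of 31346 genes match. Prkg1 and Prkg2 encode the cGMP-dependent protein kinases, Parp1 and Parp2 the poly(ADP-ribose) polymerases that respond to DNA breaks, and Capn1 and Capn2 the large subunits of the calcium-activated proteases calpain 1 and calpain 2. Cast encodes calpastatin, the inhibitor of these calpains, and Aifm1 encodes apoptosis-inducing factor (AIF), a mitochondrial flavoprotein. The retinas came from 24 mice, 1 retina per mouse, in 4 groups with equal numbers of females and males. The rd10 mouse carries on both alleles a missense change in Pde6b, which encodes a catalytic subunit of rod phosphodiesterase, on a C57BL/6J background, and all rd10 groups carry it. The rd10 TMB group (n = 8) ate chow with tamsulosin, metoprolol and bromocriptine from postnatal day 28, and the rd10 vehicle group (n = 8) ate the same chow without drugs. Both had been reared in darkness and were moved to cyclic light on day 29. The rd10 DR group (n = 4) stayed in darkness until its retinas were taken, and the WT group (n = 4) was C57BL/6J housed as the light-exposed rd10 mice were. The condition labels give the age as day 36 for rd10 TMB and rd10 vehicle mice and day 30 for rd10 DR mice. The WT condition label names the wild type without an age. The series design has day 37 for the light-exposed rd10 and WT mice and day 28 for rd10 DR mice. Light exposure and age therefore cannot be told apart between rd10 vehicle and rd10 DR. Between rd10 DR and WT, the mutation, age and rearing light differ together and cannot be told apart. Tamsulosin blocks alpha-1 and metoprolol beta-1 adrenergic receptors, and bromocriptine activates dopamine receptors. The rd10 TMB and rd10 vehicle mice had an electroretinogram the day before collection, for which the other mice had only anaesthesia.

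Rod phosphodiesterase breaks down cGMP when light activates it, and cGMP holds open the cation channel of the rod outer segment. When the phosphodiesterase fails, cGMP builds up, more calcium can enter, and cGMP-dependent kinase can be activated. Over-activated calpains and PARP activity are known features of dying rods in mice with phosphodiesterase mutations, and strong PARP1 activation can release AIF from mitochondria towards the nucleus. These steps act through enzyme activity, which RNA levels do not measure.

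The genes lie on GRCm38 as follows. Prkg1 spans chromosome 19, 30564489 to 31765033, and Capn1 chromosome 19, 5988545 to 6015897, both on the minus strand. Prkg2 spans chromosome 5, 98929773 to 99037351, on the minus strand. Parp1 lies on the plus strand of chromosome 1, 180568924 to 180601254, and Capn2 on its minus strand, 182467260 to 182517608. Parp2 spans chromosome 14, 50807841 to 50821301, on the plus strand, Cast chromosome 13, 74692368 to 74808810, and Aifm1 chromosome X, 48474944 to 48513563, both on the minus strand. RefSeq (GRCm38.p6) gave 12 windows of 250 bases before a transcription start for 7 of the 8 genes. Prkg1 and Capn1 have 2 windows each, of which the one farthest upstream is shown, and Capn2 and Parp1 have 1 each. These windows of Prkg1, Capn1 and Capn2, which were all higher in rd10 vehicle than in WT retinas, and of Parp1, which was lower, are printed 5′ to 3′ on the gene's strand, with the GC box (GGGCGG, on either strand) and the CCAAT box (CCAAT, on either strand) in capitals.
Prkg1, minus strand of chr19:31765034-31765283: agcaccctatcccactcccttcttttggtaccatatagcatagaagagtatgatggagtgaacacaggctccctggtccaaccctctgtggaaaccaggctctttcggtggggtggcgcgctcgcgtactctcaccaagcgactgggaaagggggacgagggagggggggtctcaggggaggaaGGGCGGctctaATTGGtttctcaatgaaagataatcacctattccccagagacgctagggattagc
Capn1, minus strand of chr19:6015826-6016075: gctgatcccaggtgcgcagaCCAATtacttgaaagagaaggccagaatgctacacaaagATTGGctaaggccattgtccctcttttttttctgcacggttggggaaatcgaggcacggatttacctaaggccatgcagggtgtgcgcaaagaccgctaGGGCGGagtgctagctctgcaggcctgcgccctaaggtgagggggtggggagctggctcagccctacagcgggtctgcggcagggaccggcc
Capn2, minus strand of chr1:182517611-182517860: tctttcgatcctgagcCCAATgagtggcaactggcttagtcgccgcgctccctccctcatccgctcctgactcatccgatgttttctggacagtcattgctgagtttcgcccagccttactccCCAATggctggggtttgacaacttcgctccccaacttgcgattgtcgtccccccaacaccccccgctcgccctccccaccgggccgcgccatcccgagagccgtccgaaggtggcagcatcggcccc
Parp1, plus strand of chr1:180568641-180568890: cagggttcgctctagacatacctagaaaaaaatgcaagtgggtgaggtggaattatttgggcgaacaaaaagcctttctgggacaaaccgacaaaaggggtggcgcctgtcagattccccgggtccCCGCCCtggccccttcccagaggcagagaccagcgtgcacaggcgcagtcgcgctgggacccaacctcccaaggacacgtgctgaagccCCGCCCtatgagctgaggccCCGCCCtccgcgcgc
The Parp1 window held 3 GC boxes and 0 CCAAT boxes, that of Capn2 held 0 GC boxes and 2 CCAAT boxes, that of Capn1 shown held 1 and 2, and that of Prkg1 shown held 1 of each. The other Capn1 window held 1 of each, and the other Prkg1 window 1 GC box and 0 CCAAT boxes. Of the other genes lower in rd10 vehicle than in WT retinas, Aifm1 had 0 GC boxes and 1 CCAAT box in its window. The window of Parp2 held 1 GC box and 0 CCAAT boxes. A GC box was found in 32.7% and a CCAAT box in 33.8% of all 32851 such windows, and in 7 of the 12 windows of these genes each, with 0 overlaps between them. The site of the photoreceptor factor CRX (TAATCC, either strand) was in 1 of the 12 windows, at the Prkg1 start shown, against 6.3% of all windows, and the AP-1 site (TGANTCA, either strand) in 1, that of Capn2, against 6.7%. The 4 printed windows were 55.2% (Prkg1), 58.8% (Capn1), 62.8% (Capn2) and 61.6% (Parp1) G and C, against a median of 52.4% over all windows. A match of letters is a description and not a bound site.

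The libraries held between 56799680 and 86471014 nuclear counts. Levels are given as CPM, the usual scaling of counts to library size, with TMM factors over all 24 libraries, and fold changes come from edgeR's quasi-likelihood test of 2 groups at a time, with Benjamini-Hochberg adjustment over all genes tested and a threshold of 0.05. Pde6b, the mutated gene, was at 1356 ± 359 CPM in rd10 TMB, 737 ± 290 in rd10 vehicle, 2228 ± 50 in rd10 DR and 3897 ± 283 in WT retinas (mean ± SD), the lowest being the group without treatment in the light. The mutation changes 1 base, so these counts do not check the genotype. The summed level of 13 rod genes ranged over 18850 to 38590 CPM in rd10 TMB, 7839 to 25080 in rd10 vehicle, 48930 to 53820 in rd10 DR and 80470 to 91890 in WT retinas. By group median, every comparison below sets tissue with fewer rod transcripts beside tissue with more. The ranges of rd10 TMB and rd10 vehicle overlap. In bulk tissue, fewer cells of a type and less RNA per cell cannot be told apart. Pigment epithelium markers summed to 519 to 797 CPM in rd10 TMB retinas 2 to 4 and to 144 to 198 in the other 5, lens and cornea markers reached 1216 CPM in rd10 TMB retina 4, and glial stress markers reached 1320 CPM in rd10 vehicle retina 4. The pigment epithelium sum was 100 to 252 CPM in rd10 vehicle, 26.05 to 71.99 in rd10 DR and 61.68 to 126.6 in WT retinas. Erythrocyte markers summed to 7.558 to 80.37 CPM in rd10 TMB, 9.853 to 25.9 in rd10 vehicle, 37.11 to 58.03 in rd10 DR and 7.61 to 24.55 in WT retinas. The part of these tissues in the comparisons below was not tested. The titles of rd10 samples begin with RD8, RD9 or RD10, prefixes that the labels do not explain. The rd10 TMB group has 3 RD9 and 5 RD10 retinas, the rd10 vehicle group 1 RD8, 3 RD9 and 4 RD10, and the rd10 DR group 4 RD10.

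All 8 genes were detected in every retina, with at least 407 counts each, and all passed the expression filter in all 5 comparisons. Per kilobase of exon, Parp1 was the most abundant of them in each group, at 17.6 CPM per kb in rd10 vehicle and 19.8 in WT retinas, followed by Parp2, Aifm1 and Capn2. Cast was the lowest, at 1.21 CPM per kb in rd10 vehicle and 0.769 in WT retinas. In rd10 vehicle against WT retinas, 5 genes (Prkg1, Prkg2, Capn1, Capn2 and Cast) were higher and 3 (Parp1, Parp2 and Aifm1) lower, all past the threshold. That comparison called 61.8% of the 20763 genes tested, 31.6% higher and 30.2% lower, so a call by itself sets a gene little apart. How often the ranges of groups separate over all genes tested was not counted. A separation of ranges given below therefore cannot be taken to set a gene apart. The same 5 were higher in rd10 TMB against WT retinas, with Parp2 and Aifm1 lower, where 52.2% of genes were called, 27.2% higher and 24.9% lower. In rd10 DR against WT retinas, Prkg1 and Parp1 were higher and the other 6 did not pass, where 24.7% of genes were called, 14.5% higher and 10.2% lower. Leaving out WT retina 1 or 4 left 0 of the 8 past the threshold, and leaving out WT retina 3 left 4. In rd10 vehicle against rd10 DR retinas, 5 were higher and 3 lower, where 42.6% of genes were called, 21.9% higher and 20.6% lower. Of the 8, 0 passed in rd10 TMB against rd10 vehicle retinas, where 5.69% of genes were called, 3.37% higher and 2.32% lower. That count of 1152 genes is unstable, since it was 2 without rd10 vehicle retina 1, 3 without rd10 vehicle retina 5 and 12 with the RD10 retinas alone, and every call of the drug comparison given here shares this limit.

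**Figure D1:**
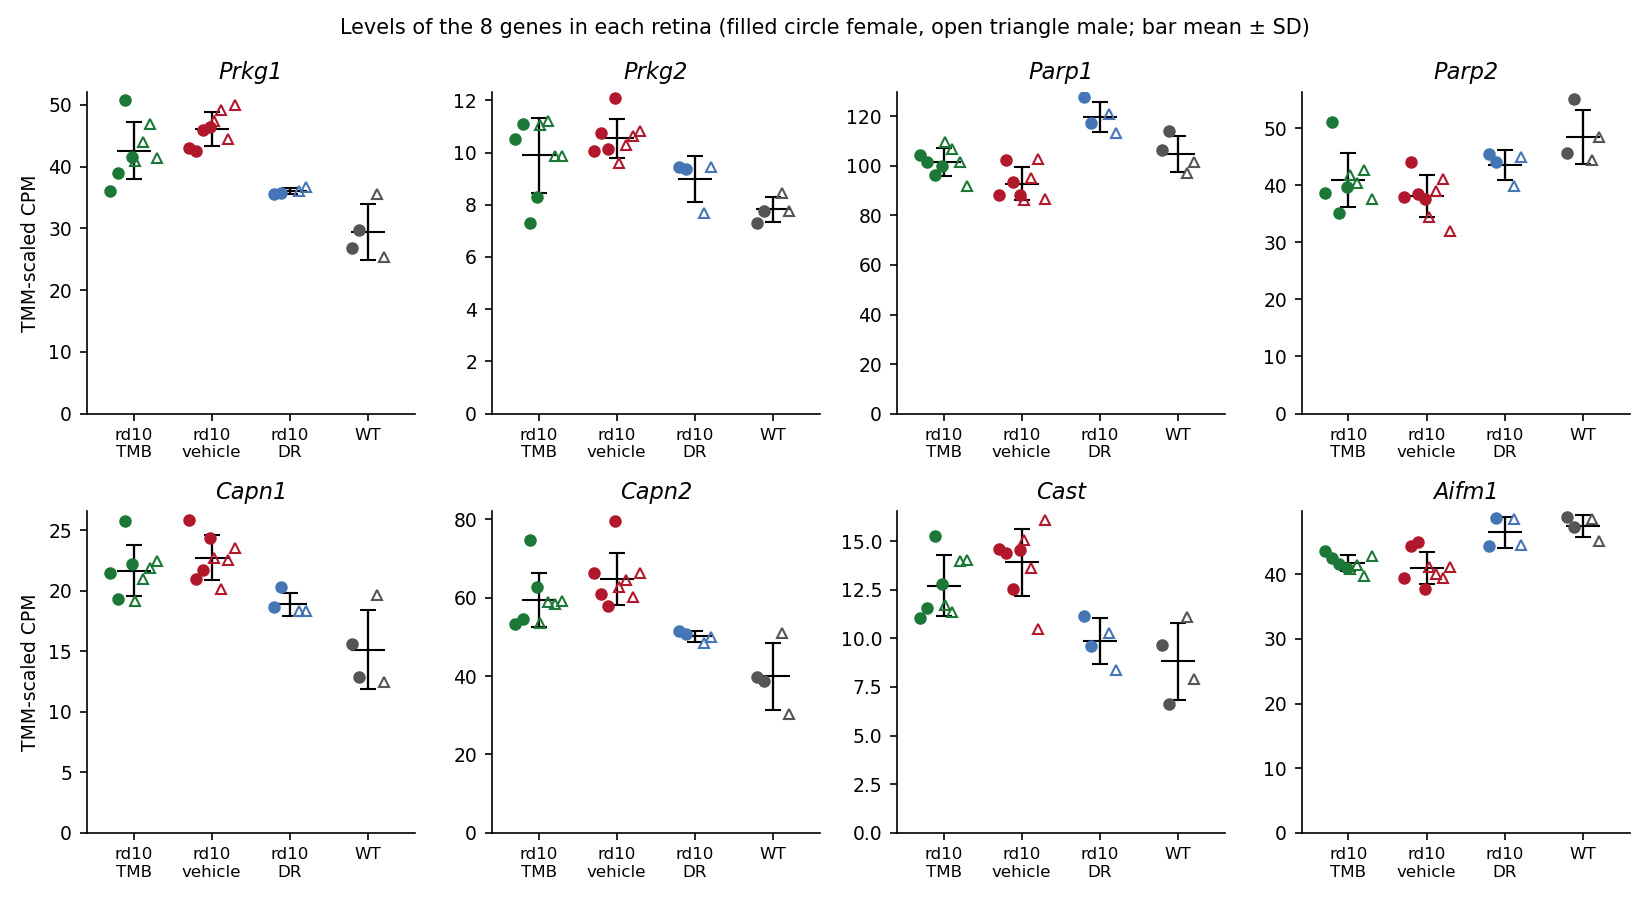
TMM-scaled CPM of each gene in each retina, by group, with filled circles for females, open triangles for males and black bars for the mean ± SD (n = 8, 8, 4 and 4). Prkg1, Prkg2, Capn1, Capn2 and Cast had their highest mean in rd10 vehicle and their lowest in WT retinas, Parp2 and Aifm1 the reverse, and Parp1 had its highest mean, 119.9 CPM, in rd10 DR retinas.

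Prkg1, the cGMP kinase I gene, was higher in every rd10 vehicle retina than in any WT retina. Its level was 35.98 to 50.77 CPM in rd10 TMB (median 41.48) and 42.47 to 49.92 in rd10 vehicle retinas (median 46.18). The 4 rd10 DR retinas had 35.56, 35.78, 35.96 and 36.73 CPM, and the 4 WT retinas 26.8, 29.8, 35.6 and 25.29. WT retina 3 thus reached the rd10 DR values, and the other WT retinas stayed below them. The level was 1.57-fold higher in rd10 vehicle than in WT retinas (log2 fold change 0.65, SE 0.081, adjusted p = 7.2e-06), 1.45-fold in rd10 TMB against WT (adjusted p = 0.000413) and 1.28-fold in rd10 vehicle against rd10 DR (adjusted p = 5.15e-05). The 1.24-fold higher level in rd10 DR against WT retinas passed narrowly (log2 fold change 0.31, SE 0.101, adjusted p = 0.0455), and it did not pass without any one of WT retinas 1, 2 and 4 or of the 4 rd10 DR retinas (log2 fold change 0.23 to 0.32, adjusted p = 0.0818 to 0.127).

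Prkg2, the membrane-bound cGMP kinase II gene, was less abundant and followed the same order of groups. It lay at 7.283 to 11.19 CPM in rd10 TMB (median 10.19) and 9.597 to 12.08 in rd10 vehicle retinas (median 10.46). It lay at 9.459, 9.371, 7.668 and 9.445 CPM in rd10 DR and at 7.29, 7.769, 8.459 and 7.77 in WT retinas. No rd10 vehicle retina overlapped WT or rd10 DR, while rd10 TMB retinas 3 (7.283 CPM) and 4 (8.281 CPM) stayed below the highest WT retina. The level was 1.35-fold higher in rd10 vehicle than in WT retinas (log2 fold change 0.43, SE 0.076, adjusted p = 0.000179). The rd10 TMB level was 1.27-fold above WT (adjusted p = 0.0198), which did not pass without WT retina 1 (adjusted p = 0.0646), with the RD10 retinas alone (0.114) or without the RD9 TMB females (0.0555). In rd10 vehicle against rd10 DR it was 1.17-fold higher (adjusted p = 0.0287), which did not pass without rd10 DR retina 3, the lowest of its group (adjusted p = 0.127), with the RD10 retinas alone (0.17) or in 1 fit over all groups (0.0616).

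Capn2, the large subunit of calpain 2, had the largest change of the 8 genes in rd10 vehicle against WT retinas. It ranged over 53.21 to 74.82 CPM in rd10 TMB (median 58.64) and 58.02 to 79.62 in rd10 vehicle retinas (median 63.66). It was at 51.56, 50.76, 48.41 and 49.86 CPM in rd10 DR retinas and at 39.76, 38.85, 51.12 and 30.2 in WT retinas. The light-exposed rd10 groups lay wholly above both others. Capn2 was 1.63-fold higher in rd10 vehicle than in WT retinas (log2 fold change 0.70, SE 0.114, adjusted p = 9.04e-05), 1.49-fold in rd10 TMB against WT (adjusted p = 0.000978) and 1.29-fold in rd10 vehicle against rd10 DR (adjusted p = 0.000557). Capn2 in rd10 DR against WT retinas had a log2 fold change of 0.34 (SE 0.13, adjusted p = 0.0775), and without WT retina 3 it was 0.48 (adjusted p = 0.000877). It also passed in DESeq2 (adjusted p = 0.0456) and in 1 edgeR fit over all groups (0.0405), as did Capn1 in that fit (0.0347).

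Capn1, the large subunit of calpain 1, ranged over 19.17 to 25.77 CPM in rd10 TMB (median 21.67) and 20.13 to 25.85 in rd10 vehicle retinas (median 22.59). It was at 18.61, 20.28, 18.29 and 18.29 CPM in rd10 DR retinas and at 15.58, 12.83, 19.61 and 12.49 in WT retinas. As for Capn2, WT retina 3 was the highest of its group and no rd10 vehicle retina overlapped WT. WT retina 3 also had the lowest rod marker sum of its group (80470 CPM). Its Müller glia (4128 CPM), microglia (101.4) and pigment epithelium sums (126.6) were the highest of the group, but not its endothelial or glial stress sums. The part of this composition in its values was not tested. Capn1 was 1.51-fold higher in rd10 vehicle than in WT retinas (log2 fold change 0.59, SE 0.11, adjusted p = 0.000317), 1.43-fold in rd10 TMB against WT (adjusted p = 0.00165) and 1.20-fold in rd10 vehicle against rd10 DR (adjusted p = 0.00514). The rd10 DR against WT log2 fold change was 0.34 (SE 0.138, adjusted p = 0.103), and without WT retina 3 it was 0.48 (adjusted p = 0.00174). With RD9 retinas alone, the change in rd10 TMB against WT was 0.42 and did not pass (adjusted p = 0.0644).

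Cast, the calpain inhibitor, rose beside the calpains. Its range was 11.02 to 15.28 CPM in rd10 TMB (median 12.23) and 10.46 to 16.06 in rd10 vehicle retinas (median 14.45). It was at 11.15, 9.597, 10.28 and 8.362 CPM in rd10 DR retinas and at 9.654, 6.621, 11.1 and 7.889 in WT retinas. The rd10 vehicle and WT groups overlapped at 1 point, where rd10 vehicle retina 7 lay below WT retina 3. Cast was 1.58-fold higher in rd10 vehicle than in WT retinas (log2 fold change 0.66, SE 0.136, adjusted p = 0.00068), 1.44-fold in rd10 TMB against WT (adjusted p = 0.00378, and 0.099 with RD9 retinas alone) and 1.41-fold in rd10 vehicle against rd10 DR (adjusted p = 0.00152). In rd10 DR against WT retinas its log2 fold change was 0.17 (95% interval -0.18 to 0.53, adjusted p = 0.47). Exons of Cast share 834 of its 11470 exon bases with Erap1 on the opposite strand, an aminopeptidase gene of antigen presentation that was itself higher in rd10 vehicle than in WT retinas (log2 fold change 0.59, adjusted p = 0.000317), and the unstranded libraries cannot separate reads of that stretch. The same limit holds for Capn2, which shares 1717 of 6345 exon bases with the antisense gene Gm37885 (30 counts over all libraries). Capn1 shares 394 of 3344 with the antisense gene Gm10814 (297 counts).

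Parp1, the main DNA-break sensor of the PARP family, did not follow the order of the other genes. It ranged over 91.86 to 109.8 CPM in rd10 TMB (median 101.8) and 86.11 to 102.9 in rd10 vehicle retinas (median 90.92). It was at 127.8, 117.4, 120.9 and 113.3 CPM in rd10 DR retinas and at 106.5, 114.1, 97.2 and 101.5 in WT retinas. No rd10 vehicle or rd10 TMB retina reached the lowest rd10 DR retina, while the WT range overlapped all 3 rd10 groups. Parp1 was 1.16-fold higher in rd10 DR than in WT retinas (log2 fold change 0.21, SE 0.055, adjusted p = 0.017, and 0.0583 and 0.0704 without WT retina 1 or 4). It was 1.29-fold lower in rd10 vehicle than in rd10 DR retinas (log2 fold change -0.37, SE 0.054, adjusted p = 7.63e-05), a call kept in every alternative run. It was 1.13-fold lower in rd10 vehicle than in WT retinas (log2 fold change -0.17, SE 0.058, adjusted p = 0.0201), which did not pass without WT retina 2 (adjusted p = 0.0886), with RD9 retinas alone (0.252) or with RD10 retinas alone (0.0677). The rd10 TMB and WT levels differed by a log2 fold change of -0.04 (95% interval -0.16 to 0.07, adjusted p = 0.521).

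Parp2, the second PARP that DNA breaks activate, was lowest in rd10 vehicle and highest in WT retinas. It ranged over 35.17 to 51.09 CPM in rd10 TMB (median 40.08) and 32.05 to 44.13 in rd10 vehicle retinas (median 38.21). It was at 45.51, 44.08, 39.81 and 45.01 CPM in rd10 DR retinas and at 45.71, 55.2, 44.46 and 48.53 in WT retinas. All rd10 vehicle retinas were below all WT retinas, narrowly at the closest, and among rd10 TMB retinas only retina 2 reached the WT range. Parp2 was 1.27-fold lower in rd10 vehicle than in WT retinas (log2 fold change -0.35, SE 0.078, adjusted p = 0.00147). Against WT, the rd10 TMB level was 1.18-fold lower (adjusted p = 0.0244), which did not pass without WT retina 2 (0.114) or 4 (0.0531) or with RD9 retinas alone (0.389). It was 1.15-fold lower in rd10 vehicle than in rd10 DR retinas (adjusted p = 0.0362), which did not pass without any one of rd10 DR retinas 1, 2 and 4 or rd10 vehicle retinas 1 and 5 (adjusted p = 0.0512 to 0.105), with RD10 retinas alone (0.0897) or in 1 fit over all groups (0.0609). The rd10 DR against WT log2 fold change was -0.13 (adjusted p = 0.198).

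Aifm1, the AIF gene, ranged over 39.72 to 43.58 CPM in rd10 TMB (median 41.5) and 37.72 to 44.98 in rd10 vehicle retinas (median 40.55). It was at 44.39, 48.66, 48.48 and 44.52 CPM in rd10 DR retinas and at 48.86, 47.3, 48.62 and 45.16 in WT retinas. Both light-exposed rd10 groups lay below WT without overlap. Aifm1 was 1.16-fold lower in rd10 vehicle than in WT retinas (log2 fold change -0.21, SE 0.051, adjusted p = 0.00277, and 0.0816 with RD10 retinas alone) and the rd10 TMB level was 1.14-fold below WT (adjusted p = 0.00151, and 0.0977 with RD9 retinas alone). It was 1.13-fold lower in rd10 vehicle than in rd10 DR retinas (adjusted p = 0.0115, and 0.0967 with RD10 retinas alone). In rd10 DR against WT retinas the log2 fold change was -0.01 (95% interval -0.14 to 0.11, adjusted p = 0.905).

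**Figure D2:**
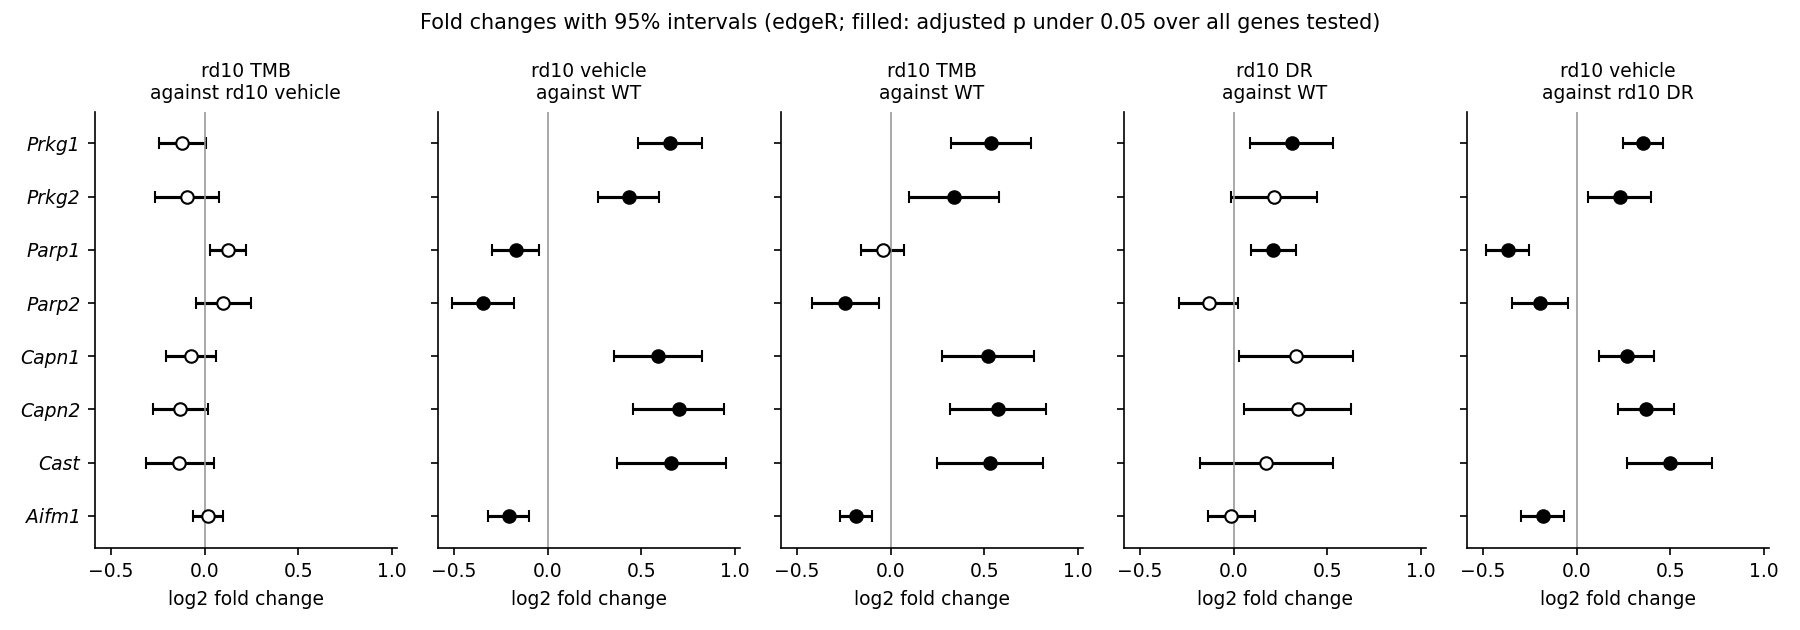
Log2 fold change of each gene in the 5 comparisons, with 95% intervals from edgeR, filled where the adjusted p over all genes tested was under 0.05. In rd10 TMB against rd10 vehicle retinas 0 of 8 points are filled, while in rd10 vehicle against WT retinas all 8 are, with 5 to the right and 3 to the left of 0.

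The drug comparison, rd10 TMB against rd10 vehicle, asked whether the diet changed these levels. For none of the 8 genes did the difference pass, and the ranges of the groups overlapped for each of them. The log2 fold changes were -0.12 for Prkg1 (95% interval -0.24 to 0.01), -0.10 for Prkg2 (-0.27 to 0.08), -0.07 for Capn1 (-0.20 to 0.06), -0.13 for Capn2 (-0.28 to 0.02) and -0.13 for Cast (-0.32 to 0.05). They were 0.13 for Parp1 (0.03 to 0.22), 0.10 for Parp2 (-0.05 to 0.25) and 0.02 for Aifm1 (-0.06 to 0.10). Missing the threshold does not show equal levels, and the intervals give the sizes of difference that remain possible. Parp1 came closest to the threshold (adjusted p = 0.104 in edgeR), and it passed without rd10 vehicle retina 2 (adjusted p = 0.0497) or 7 (0.0493). Those retinas had the 2 highest Parp1 levels of their group, 102.3 and 102.9 CPM. Over the same retinas Pde6b was 1.84-fold higher in rd10 TMB (adjusted p = 0.0302).

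Females and males were compared within the drug contrast. The difference in drug effect, female minus male, ranged from -0.23 (Prkg2, SE 0.161) to 0.05 (Prkg1, SE 0.12) on the log2 scale, with an adjusted p of 0.999 in edgeR for each of the 8. Over all 20251 genes the same test called 0, with 776 at an unadjusted p under 0.05 and 2 calls in DESeq2.

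Ratios of counts within a library do not depend on how libraries are scaled, and 5 of them were compared in the 5 comparisons. Parp1 gave 2.51 ± 0.24 counts per Parp2 count in rd10 TMB, 2.45 ± 0.12 in rd10 vehicle, 2.76 ± 0.22 in rd10 DR and 2.17 ± 0.12 in WT retinas (mean ± SD). All 4 rd10 DR ratios, 2.52 to 3.04, lay above all 4 WT ratios, 2.07 to 2.33. The difference in log2 ratio was 0.34 in rd10 DR against WT retinas (exact two-sided permutation p = 0.0286, the smallest that 4 against 4 allows, adjusted p = 0.179 over 25 tests) and 0.17 in rd10 vehicle against WT retinas (exact p = 0.00404, adjusted p = 0.101). Prkg1 gave 4.44 ± 1.17 counts per Prkg2 count in rd10 TMB, 4.39 ± 0.39 in rd10 vehicle, 4.04 ± 0.44 in rd10 DR and 3.74 ± 0.40 in WT retinas. Capn2 gave 4.69 ± 0.34 counts per Cast count in rd10 TMB, 4.71 ± 0.61 in rd10 vehicle, 5.15 ± 0.62 in rd10 DR and 4.60 ± 0.90 in WT retinas, with a difference in log2 ratio of 0.04 in rd10 vehicle against WT retinas (exact p = 0.729). Of the 25 ratio tests 0 passed after adjustment, and 5 had an unadjusted exact p under 0.05.

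**Figure D3:**
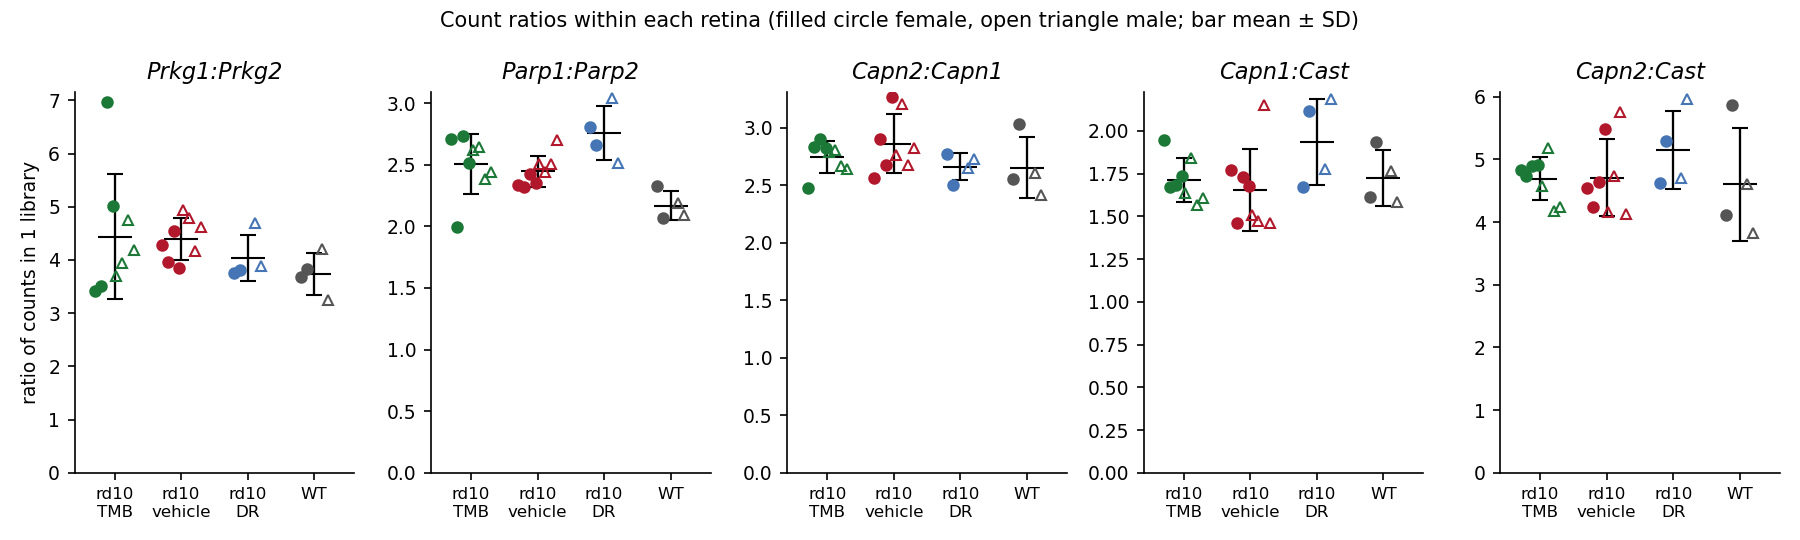
Ratios of counts within each retina for 5 pairs of genes, by group, with filled circles for females, open triangles for males and bars for the mean ± SD. The Parp1:Parp2 ratio had its highest mean, 2.76, in rd10 DR and its lowest, 2.17, in WT retinas, and the ratios of calpain to Cast overlapped in all groups.

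The calls of most small decreases depended on the scaling, and for Parp1 against WT so did the direction. TMM aligned the libraries so that all genes had a median log2 fold change of 0.015 in rd10 vehicle against WT retinas. With library size alone it was 0.218, while rd10 TMB against WT gave 0.17 without and 0.004 with TMM, and rd10 vehicle against rd10 DR 0.117 and 0.017. Without TMM, Parp1 had a log2 fold change of 0.03 in rd10 vehicle against WT (adjusted p = 0.614), which is -0.19 relative to the median of all genes, and 0.12 in rd10 TMB against WT (adjusted p = 0.0342). Parp2 and Aifm1 stayed below 0 there, at -0.14 (adjusted p = 0.106) and -0.01 (0.931) in rd10 vehicle against WT, -0.08 (0.457) and -0.02 (0.717) in rd10 TMB against WT, and -0.10 (0.266) and -0.08 (0.237) in rd10 vehicle against rd10 DR. The 5 increases in rd10 vehicle against WT passed under TMM, DESeq2's size factors and library size alone. The decrease of Parp1 in rd10 vehicle against rd10 DR also passed without TMM (log2 fold change -0.27, adjusted p = 0.000464 in edgeR). Increases and decreases alike are changes relative to the other genes. Of all called genes, the share that was higher without TMM was 38.7% against 59.3% with TMM (rd10 TMB against rd10 vehicle), 72.3% against 51.1% (rd10 vehicle against WT), 74.8% against 52.2% (rd10 TMB against WT), 78.9% against 58.8% (rd10 DR against WT) and 69.5% against 51.5% (rd10 vehicle against rd10 DR).

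**Figure D4:**
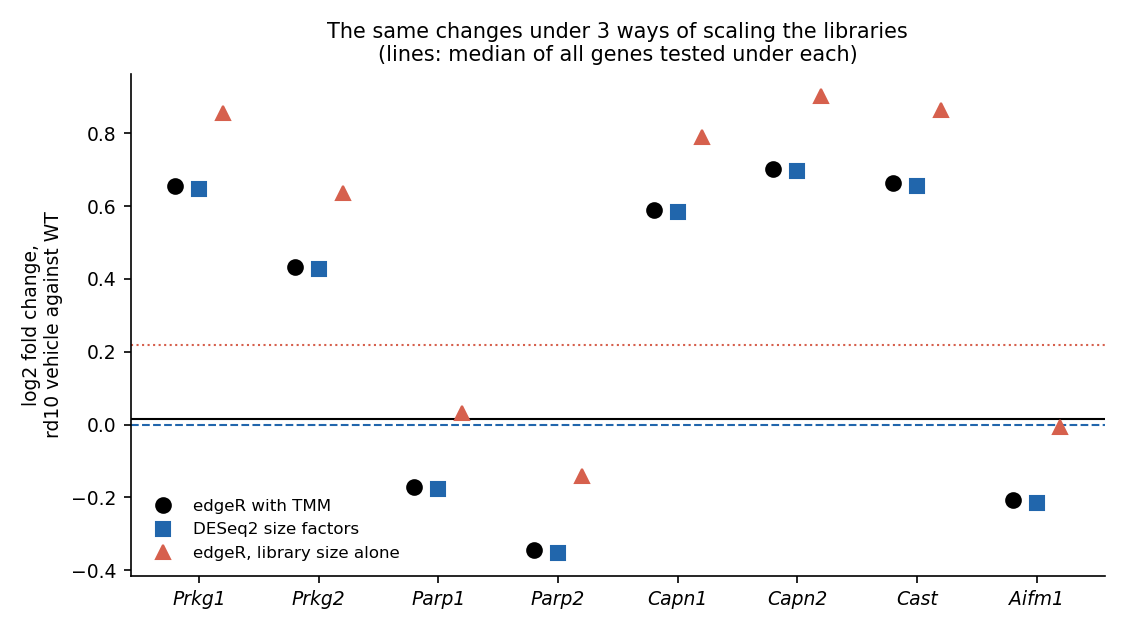
Log2 fold change of each gene in rd10 vehicle against WT retinas with TMM, DESeq2 size factors or library size alone, with a horizontal line at the median of all genes under each. The 5 increases are above the lines under each scaling, and Parp1, at 0.03 with library size alone, lies above 0 but below its line at 0.218.

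Genes that make, bind or act beside these effectors were described from lists. The counts of called genes in rd10 vehicle against WT retinas stand beside 31.6% higher and 30.2% lower over all genes tested, 61.8% in all, so that lists in which about 6 of 10 genes were called in mixed directions are near that background. In rd10 TMB against rd10 vehicle retinas 5.69% of all genes were called, so 0 or 1 calls in a list are near the background there. Of 10 rod genes for cGMP turnover and calcium entry, all 10 fell in rd10 vehicle against WT retinas, and their median log2 fold change was -2.32, where that of all genes was 0.015. The guanylate cyclase gene Gucy2f was 6.28-fold lower, the cyclase activator Guca1b 6.20-fold and the sodium-calcium exchanger Slc24a1 5.79-fold lower. Of the 10, 9 were higher in rd10 TMB against rd10 vehicle retinas, with Pde6b 1.84-fold, Guca1b 1.82-fold and Slc24a1 1.77-fold higher. Outside the rod cascade, 6 of 11 tested genes of cGMP synthesis and breakdown rose in rd10 vehicle against WT retinas and 0 fell, a share called no higher than the 61.8% of all genes. The natriuretic peptide receptor Npr2 was 1.63-fold higher, and the soluble guanylate cyclase subunits Gucy1a2 and Gucy1a1 were 1.58-fold higher each. Of 8 substrates and partners of the cGMP kinases 5 rose and 1 fell, with Vasp 1.65-fold, the potassium channel gene Kcnma1 1.55-fold and the IP3 receptor gene Itpr1 1.52-fold higher. In rd10 TMB against rd10 vehicle retinas Gucy1a1 was 1.14-fold lower (313.8 ± 14.1 against 356.1 ± 20.7 CPM, adjusted p = 0.0245) and the transcription factor gene Gtf2i 1.07-fold lower (adjusted p = 0.044). There, 3 of 6 amacrine, 3 of 6 endothelial, 2 of 7 bipolar and 1 of 6 Müller glia markers were also lower, where 2.32% of all genes were. Of 4 horizontal and 5 ganglion cell markers 0 passed, while 12 of 13 rod and 1 of 7 cone markers were higher. The part of these cell types in both decreases was not tested.

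Of the 14 other PARP family genes, most of which do not respond to DNA breaks, 8 rose and 3 fell in rd10 vehicle against WT retinas, with a median log2 fold change of 0.22. The antiviral gene Zc3hav1 (PARP13) was 3.78-fold higher, at 13.6 ± 1.47 CPM in rd10 vehicle and 3.61 ± 1.18 in WT retinas, Parp14 3.41-fold and Parp3 2.7-fold. Zc3hav1 was 2.67-fold higher and Parp14 2.72-fold higher in rd10 DR against WT retinas. Of 7 DNA-repair partners of PARP1, 0 were higher and 6 lower in rd10 vehicle against WT retinas (median log2 fold change -0.21). Aplf, which binds poly(ADP-ribose) at breaks, was 1.70-fold lower, the PARP cofactor Hpf1 1.34-fold and the scaffold Xrcc1 1.21-fold lower. Of the 7, 2 were lower in rd10 DR against WT retinas, Hpf1 (1.19-fold) and Xrcc1 (1.14-fold), where 10.2% of all genes were lower. Of 14 genes for removing poly(ADP-ribose) and supplying its substrate NAD, 4 rose and 4 fell in rd10 vehicle against WT retinas, close to the background of 61.8% called. The NAD synthesis gene Naprt was 2.49-fold and the NAD-consuming Cd38 2.39-fold higher, while Sarm1, the NAD-cleaving enzyme of axon degeneration, was 2.04-fold lower. In rd10 TMB against rd10 vehicle retinas Sirt1, a NAD-dependent deacetylase gene, was 1.14-fold higher (adjusted p = 0.0417). It was the 1 call among those 14, where 5.69% of all genes were called.

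Of 11 other calpain genes counted, 8 passed the expression filter and were tested, of which 3 rose and 2 fell in rd10 vehicle against WT retinas. Capns1, the small subunit shared by calpain 1 and calpain 2, was 1.57-fold higher, at 223.3 ± 9.86 CPM in rd10 vehicle and 142.8 ± 13.6 in WT retinas. Capn3 was 2.88-fold higher at a low level, 3.37 ± 0.31 CPM in rd10 vehicle and 1.18 ± 0.51 in WT retinas, and Capn5 was 1.48-fold higher. In rd10 DR against WT retinas Capns1 was 1.30-fold, Capn5 1.39-fold and Capn3 2.16-fold higher. Of these 8, 0 passed in rd10 TMB against rd10 vehicle retinas, where 5.69% of all genes were called. Markers of most other retinal cell types were higher too. In rd10 vehicle against WT retinas 7 of 7 bipolar (median log2 fold change 0.78), 6 of 6 amacrine (0.54), 5 of 5 ganglion (0.49), 3 of 4 horizontal (0.79) and 5 of 6 endothelial cell markers (0.60) rose, beside 0.43 to 0.70 for Prkg1, Prkg2, Capn1, Capn2 and Cast. Cone markers were mixed, with 5 of 7 higher and 1 lower (median log2 fold change 0.40), and 1 of 5 pigment epithelium markers was higher. All 6 Müller glia markers were higher in rd10 vehicle than in WT retinas (median log2 fold change 0.76), and their summed level was 4643 to 5729 CPM in rd10 TMB, 4936 to 6140 in rd10 vehicle, 3747 to 4154 in rd10 DR and 3532 to 4128 in WT retinas. All 15 microglia and macrophage markers were higher too, and their sum was 286 to 404 CPM in rd10 TMB, 314 to 355 in rd10 vehicle, 215 to 289 in rd10 DR and 66.3 to 101 in WT retinas. The 3 mural cell markers tested, of vessel-wall cells that are known to express Prkg1, summed to 137 to 188 CPM in rd10 TMB, 152 to 209 in rd10 vehicle, 130 to 167 in rd10 DR and 99.2 to 117 in WT retinas. The part of these cell types in the changes of the 8 genes was not tested.

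**Figure D5:**
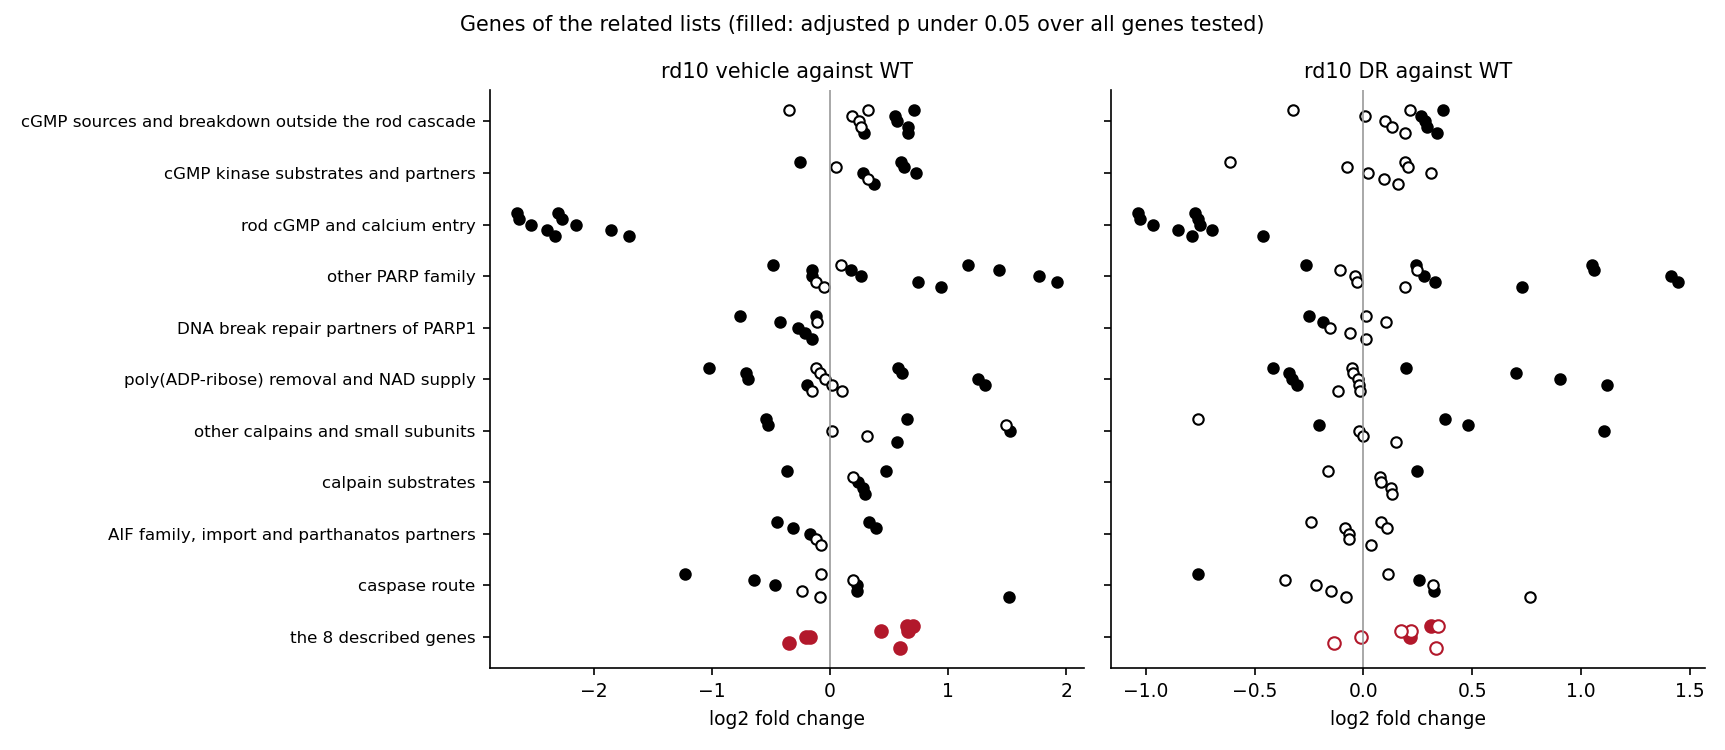
Log2 fold change of each tested gene of 10 related lists (black) and of the 8 genes (red, lowest line) in rd10 vehicle against WT and in rd10 DR against WT retinas, filled where the adjusted p over all genes tested was under 0.05. The 10 rod genes lie left of 0 in both panels, and 6 of the 7 repair partners are filled and left of 0 in the rd10 vehicle panel, against 2 in the rd10 DR panel.

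Likeness of profiles was described by the root mean square (RMS) difference in log2 CPM, relative to the WT mean, over the 24 libraries, among 11360 genes with a mean of at least 5 CPM. These values share all libraries and carry no test. Within the 8 genes the closest pairs were Prkg1 and Capn2 (0.118), Capn1 and Capn2 (0.119) and Prkg1 and Capn1 (0.135). The next was Parp1 and Aifm1 (0.161). Over all genes, Capn2 lay closest to Ptprm, Micall1 and Plcb3 (0.083 to 0.093, where the median gene lay at 0.616), and Capn1 to Cyb5r3, Ece1 and Rps6ka4 (0.079 to 0.082). Prkg1 lay closest to Slc22a23, Ptprk and Zfp704 (0.096 to 0.097), and Prkg2 to Dclk1, Khdrbs3 and Fbxw7 (0.12 to 0.126). The nearest genes to Parp1 were Baz2a, Stom and Smad5 (0.061 to 0.073), to Parp2 Ist1, Senp3 and Ttll4 (0.069 to 0.074), to Aifm1 Cep19, Nom1 and Bfar (0.069 to 0.071) and to Cast Smarcd3, Eef2k and Osbpl5 (0.131 to 0.14).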

How the data were processed

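Polyadenylated RNA of 1 retina per mouse was sequenced from unstranded libraries. Per the labels and the study's methods, the authors used Trimmomatic for trimming, STAR for alignment to GRCm38 and HTSeq for counting reads per gene, and the deposited table holds these raw counts. Whether reads were single or paired differs between the sources, and the overlap mode of the counting is not stated. Columns with the authors' own DESeq2 contrasts (fold changes, p-values) were not used. Of the columns of values, 0 could not be matched to a sample, and 0 rows lacked a gene name. Nuclear genes alone were analysed, with 56799680 to 86471014 counts per library, and over 68 pairs of libraries within a group the chi-square per gene was 6.52 or more, so no pair agreed within counting noise.

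Each pair of groups was fitted alone in edgeR 4.0.16 (R 4.3.3) with its default expression filter, TMM and glmQLFTest, and intervals cover 95%. Profiles used log2 CPM with a prior count of 2, and ratios used count + 0.5 and exact permutation tests. Scripts were tested on simulated data. Alternatives were DESeq2 1.42.0, no TMM, no filter, 1 fit over all groups, sex in the model, title prefixes and each retina left out. The 8 genes and the lists were chosen with earlier results of these data known. Named were the 8 genes, Pde6b, the 3 nearest profiles per gene and, from each list, genes among the 3 called ones with the largest change in a comparison, of which not all are given. Erap1, Gm37885 and Gm10814 are named since their exons overlap those of Cast, Capn2 and Capn1. Of the listed genes, 12 were not analysed here, others did not pass the expression filter, and 1 is not reported by name.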

Additional observations from a re-analysis of the deposited data

Results flagged for a closer look

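In 52 sets of values (8 genes and 5 ratios in 4 groups), 9 held a retina that stood apart from the rest of its group by Dixon's test, where chance flags about 1 in 20. The rd10 TMB retina 3 had 74.82 CPM of Capn2 and 6.97 Prkg1 counts per Prkg2 count, both the highest of its group. It is one of the 3 rd10 TMB retinas with raised pigment epithelium markers (729.8 CPM), whose part in these values was not tested. The rd10 TMB retina 2 had 51.09 CPM of Parp2, the highest, and 1.993 Parp1 counts per Parp2 count, the lowest of its group. The rd10 vehicle retina 4 had 79.62 CPM of Capn2, beside the highest sum of glial stress markers of its group (1320 CPM), and rd10 vehicle retina 7 had 2.152 Capn1 counts per Cast count. Among rd10 DR retinas, retina 3 had 7.668 CPM of Prkg2 and 4.689 Prkg1 counts per Prkg2 count, and retina 2 had 20.28 CPM of Capn1.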

How the results depend on the processing

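No paired analysis was possible because the replicate numbers only follow accession order. The study's methods divide each litter between drug and vehicle, but the labels tie no mouse to a litter. With the title prefix as a term and without the RD8 retina, rd10 TMB against rd10 vehicle gave 829 calls and 0 of the 8 genes. The counts of genes called in rd10 TMB against rd10 vehicle moved most, to 1870 with DESeq2, 680 without an expression filter, 0 with RD9 and 12 with RD10 retinas alone, 19 without the RD9 TMB females and, in an alternative chosen after seeing the data, 3 without rd10 TMB retinas 2 to 4, against 1152. With single retinas left out it ranged from 2 to 1676. In rd10 TMB against WT, RD9 retinas alone gave 7201 calls and 3 of the 8 genes past the threshold, against 10879 and 7. Without TMM, 5 of the 8 genes passed in rd10 vehicle against WT, and Parp1 turned to a log2 fold change of 0.032 there and of 0.123 in rd10 TMB against WT. In rd10 DR against WT, 4 passed without TMM and in 1 fit over all groups, 1 with sex in the model, and 0 to 4 with single retinas left out, against 2, while the calls over all genes ranged from 3582 to 6749. In rd10 vehicle against rd10 DR, RD10 retinas alone left 5 of 8. With single retinas left out, 7 to 8 passed in rd10 vehicle against WT and against rd10 DR, 6 to 7 in rd10 TMB against WT and 0 to 1 in rd10 TMB against rd10 vehicle. The sex difference gave 2 calls over all genes in DESeq2 and 0 to 1 with single retinas left out, against 0. Of 312 other-setting values of single genes, 284 kept their side of the threshold and, where called, their direction. Changes of direction among values that did not pass were not counted. Aifm1 in rd10 TMB against rd10 vehicle, for example, went from 0.02 to -0.015 without TMM. Of the ratios, 0 of 25 passed under any setting run. Each of the 8 genes had at least 407 counts in every library, and the WT and rd10 DR groups had 4 retinas each.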

Other observations

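The classical caspase route of cell death was described from 10 genes. In rd10 vehicle against WT retinas 3 rose and 3 fell, close to the 61.8% of all genes called in that comparison. Casp8, the initiator caspase of death receptors, was 2.86-fold higher at a low level (3.73 ± 0.75 CPM in rd10 vehicle and 1.31 ± 0.53 in WT retinas, adjusted p = 5.65e-05 in edgeR). Xiap, an inhibitor of caspases, was 2.35-fold lower (246.9 ± 24.4 CPM in rd10 vehicle and 581.3 ± 59.4 in WT retinas, adjusted p = 3.05e-08), and Diablo, which antagonises it, was 1.56-fold lower. In rd10 DR against WT retinas Xiap was 1.69-fold lower (adjusted p = 0.000316). In rd10 TMB against rd10 vehicle retinas 0 of the 10 passed, where 5.69% of all genes were called.

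Of 6 known calpain substrates, 4 rose and 1 fell in rd10 vehicle against WT retinas, where 31.6% of all genes were higher and 30.2% lower. Cdk5r1, the p35 activator of Cdk5, was 1.39-fold higher (111.1 ± 7.76 CPM in rd10 vehicle and 80.2 ± 4.32 in WT retinas, adjusted p = 6.48e-06), and the microtubule protein gene Map2 was 1.29-fold lower (adjusted p = 8.84e-06). Ppp3ca, a catalytic subunit gene of calcineurin, was 1.23-fold higher (adjusted p = 0.000328). In rd10 TMB against rd10 vehicle retinas Cdk5r1 was 1.13-fold lower (adjusted p = 0.0379). Some amacrine, endothelial, bipolar and Müller glia markers were lower there too, and their part in this decrease was not tested. Of 7 relatives and partners of AIF, 2 rose and 3 fell in rd10 vehicle against WT retinas, and the histone gene H2afx was 1.36-fold lower (adjusted p = 0.000223).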
